A study of Mus musculus with 15 samples.

Results

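RNA from CD11b+CD45hi and CD11b+CD45lo brain cells of chow-fed mice was compared at 12 months of age, as the baseline against which a western diet (WD) was set in the same series. The comparison rests on 8 of the 15 libraries, 4 of CD45hi and 4 of CD45lo cells, chosen by their diet and CD45 labels and not by any measured value. All came from wild type C57BL/6J males kept on the control chow diet (CD) from weaning, and no transgene or other treatment was involved. The other 7 libraries, 3 CD45hi and 4 CD45lo, were of mice whose WD began at 2 months. They entered the filter on low genes, the shared estimate of the spread and the test of a difference between diets. Mice were perfused before the brains, without olfactory bulb and cerebellum, were dissociated and live CD45+ cells were sorted into CD45hi and CD45lo gates of CD11b+ cells without CD3e, a T cell protein. Each group is thus a gate and not a single cell type, and the labels do not say whether a CD45hi and a CD45lo library of the same number came from the same mouse, so p-values measure the spread between these samples.

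CD11b is an integrin chain carried by microglia, macrophages, monocytes and neutrophils, and CD45 is a phosphatase on all leukocytes that resting microglia carry at a low level. Microglia are the resident macrophages of the brain tissue and are kept in their resting program by TGF-beta and colony stimulating factor 1. Macrophages at the borders of the brain (meninges, perivascular space and choroid plexus), and monocytes and neutrophils from the blood, carry more CD45 and fall into the CD45hi gate. *Ptprc*, which encodes CD45, was measured at 778, 947, 805 and 1170.5 cpm in the CD45hi libraries and 403, 390.2, 413 and 464 cpm in the CD45lo libraries. The libraries of the gates did not overlap, and the level was 2.22-fold higher in CD45hi cells (log2 fold change 1.15, SE 0.14, FDR = 0.00438). *Itgam*, which encodes CD11b, was at 1829, 1592, 1752 and 1939.6 cpm in CD45hi and 2026, 2052, 2095 and 2207 cpm in CD45lo libraries, with a log2 fold change of -0.24 (SE 0.1) that did not pass the test (edgeR glmTreat FDR = 1).

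Levels are given in cpm, counts scaled to a common library size after normalization, for single libraries in the order of replicates 1 to 4 or as the mean ± SD over 4 libraries. A gene was called where edgeR's glmTreat placed the difference beyond 1.5-fold at an FDR, the Benjamini-Hochberg adjusted p over 14967 genes, below 0.05. Log2 fold changes are CD45hi minus CD45lo. Total expected counts were 12370419 to 17752587 in CD45hi and 15100700 to 17912272 in CD45lo libraries, and 3 counts, taken as the smallest measurable value, were worth 0.156 to 0.264 cpm. This floor covers counting error only. Of the genes tested, 1229 to 2155 had 0 counts in a CD45hi library and 370 to 955 in a CD45lo library. CD45hi libraries also varied more. Over the 5410 genes with at least 20 cpm in both means, the median SD of log2 cpm was 0.492 in CD45hi and 0.195 in CD45lo cells. Across these genes, which are not independent replicates, the log2 cpm of CD45hi libraries correlated with each other at 0.747 to 0.848, that of CD45lo libraries at 0.959 to 0.972, and that of libraries from different gates at 0.754 to 0.856. In a PCA of the 8 libraries PC1 took 29.7% and PC2 21.2% of the variance. Replicate 4 of CD45hi cells scored 132 on PC1 and the others 25.5 to 29.9, so each result below was also computed without it.

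**Figure D1:**
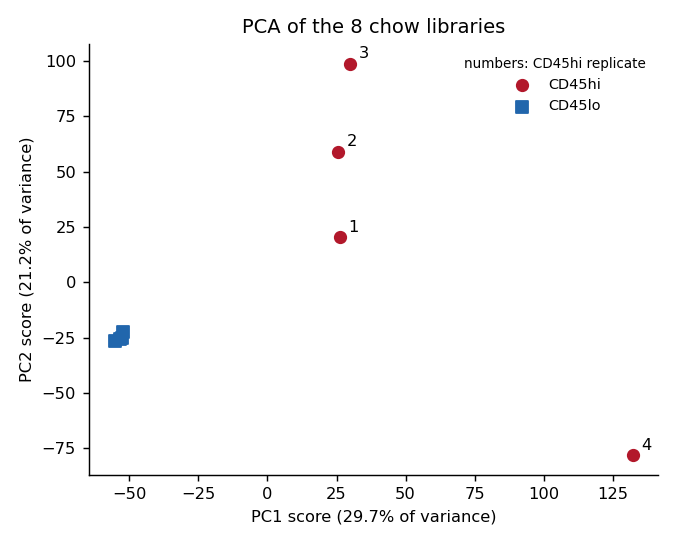
Scores of the 8 chow libraries on PC1 and PC2 (log2 cpm of 14967 genes, centred and scaled), with CD45hi libraries as numbered circles and CD45lo libraries as squares. The 4 CD45lo libraries lie together at -55.3 to -52.3 on PC1, and CD45hi replicate 4 at 132 lies apart from the other 3.

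A total of 595 genes were called, 3.98% of the 14967 tested. Of these, 507 were higher in CD45hi cells (3.39% of genes tested) and 88 were lower (0.588%). These shares are the background for each count of called genes in a list below. Over all called genes the median difference was near equal in both directions, 11.2-fold for higher and 10.8-fold for lower genes. However, 43 of the 88 lower genes and 30 of the 507 higher genes were under 10 cpm in their higher group. Among called genes with at least 10 cpm there, the medians were 10.1-fold for higher and 2.76-fold for lower genes. Among the 185 higher genes with at least 100 cpm in CD45hi cells the median difference was 3.77-fold (range 1.85 to 98.9), and 57 exceeded 10-fold. Among the 32 lower genes with at least 100 cpm in CD45lo cells the median was 2.36-fold (range 1.86 to 3.29). No gene of that level was 10-fold lower in CD45hi cells. The libraries of the gates did not overlap for 491 of the 507 and 87 of the 88 genes, where 8.26% of all genes tested had every CD45hi library above and 8.22% every CD45hi library below the CD45lo libraries. Low genes stand apart in the lower set. In 36 of the 88 lower genes, none of which reached 10 cpm, every CD45hi library was at 3 counts or fewer, as was every CD45lo library in 24 of the 507 higher genes. Of the 3631 genes at 5 to 20 cpm in CD45lo cells, 12.4% had a CD45hi library at 3 counts or fewer and 0.358% a CD45lo library, so that single genes of this level are uncertain in CD45hi cells. The part of this loss in the lower calls was not tested. Without CD45hi replicate 4 there were 499 calls, 435 higher and 64 lower. Where a call of a gene named here was lost with 1 library left out, the direction was kept and the log2 fold change was 72.4 to 111% of its value with all libraries (median 97%, 171 gene and library pairs).

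**Figure D2:**
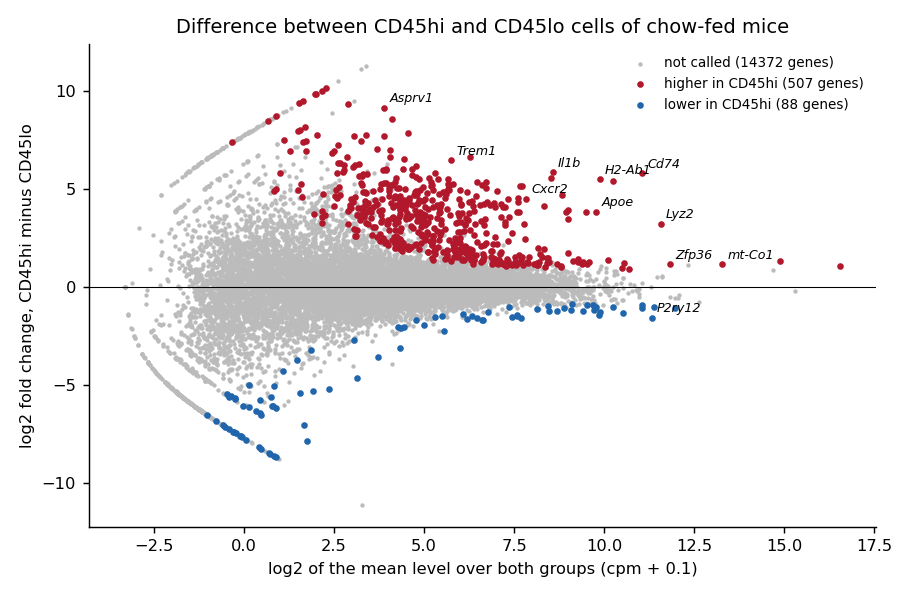
Log2 fold change of each of the 14967 genes tested (CD45hi minus CD45lo) against the log2 of its mean level over both groups in cpm plus 0.1. The 507 genes called higher (red) reach far larger differences at high levels than the 88 called lower (blue), and grey points were not called.

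Microglial genes were lower in CD45hi cells, but were far from absent. Of 24 genes that mark resting microglia 15 were called lower and 0 higher (62.5%, against 0.588% of all genes tested), with a median log2 fold change of -1.09 against 0.036 over all genes. Summed over the 24 genes, the level was 18866 to 22998 cpm in CD45hi libraries and 42357 to 43307 cpm in CD45lo libraries. In bulk RNA, fewer cells of a type and less RNA of a gene per cell cannot be told apart. *P2ry12* (ENSMUSG00000036353, chromosome 3 from 59216272 to 59262871 of GRCm38, the build of the files), the ADP receptor of microglial processes, was measured at 1207, 1285, 1484 and 1137 cpm in the CD45hi libraries and 4022, 3598, 3765 and 3945 cpm in the CD45lo libraries. All CD45hi libraries lay below all CD45lo libraries, at a mean of 33.4% of the CD45lo level (log2 fold change -1.58, SE 0.12, FDR = 5.36e-06). *P2ry13*, its neighbour and relative, fell to 40.04% (log2 fold change -1.32, FDR = 0.000675). *Tmem119*, a membrane protein typical of microglia, was at 722, 419.8, 507 and 389.5 cpm in the CD45hi libraries and 1066, 1377, 1171 and 1053 cpm in the CD45lo libraries, which is 43.7% (log2 fold change -1.2, SE 0.17, FDR = 0.00951). *Sparc*, a secreted matrix protein, was at 48.05% (log2 fold change -1.06, FDR = 0.0048), *Siglech*, a sialic acid binding receptor, at 53.8% (log2 fold change -0.9, FDR = 0.037), and *Cx3cr1*, the receptor of neuronal fractalkine, at 51.7% (log2 fold change -0.95, FDR = 0.00783). The lowest of these shares was that of *P2ry12*. *P2ry6*, the UDP receptor of phagocytosis, was at 135 ± 43.7 cpm in CD45hi and 154 ± 24.7 cpm in CD45lo cells and overlapped between the gates, and *Csf1r*, the CSF1 receptor on which macrophages depend, was at 2979.9 ± 389 cpm in CD45hi and 4369 ± 273 cpm in CD45lo cells, which did not pass the test (FDR = 0.874). *Cst3*, encoding cystatin C, was also not called (4696 against 7974 cpm, FDR = 0.152). Without CD45hi replicate 4 the count was 14 of 24. The call was lost without 1 library for *Siglech* (CD45hi replicate 1 or 2 or CD45lo replicate 2, 3 or 4, FDR = 0.0648 to 0.108).

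The promoter of *P2ry12* is shown because this gene had the lowest FDR of the microglial list. The windows printed here are the 250 bases upstream of a RefSeq start site, 5′ to 3′ on the strand of the gene. They were searched on both strands for the letters of PU.1 (AGGAAGT), the master factor of myeloid cells, of C/EBP (TTGCNNAA), AP-1 (TGANTCA), NF-kappaB (GGGANTTTC), NF-Y (CCAAT) and the interferon response element (GAAANNGAA), and capitals mark the matches. Among the first windows of all 27025 RefSeq genes with one, 7.8% held the PU.1 letters, 9.55% those of C/EBP, 6.87% AP-1, 0.977% NF-kappaB, 34.5% NF-Y and 7.16% the interferon element. A match is a description of letters and not a site. Windows of *S100a9*, *Trem1*, *Lyz2*, *Cx3cr1*, *Sall1*, *Il1b*, *Apoe* and *Cxcl2* were also searched and are not printed. None of the letters were found for *Il1b*, in window 2 of *Sall1* or in windows 2 and 3 of *Apoe*. The windows printed were chosen and do not stand for marker genes in general. Only 373 of the 507 higher and 63 of the 88 lower genes had a window, fewer than 80%, so a comparison of motif shares between called genes and all genes is void. *P2ry12* (chr3:59262986-59263235 of GRCm38.p6, minus strand) held C/EBP and PU.1 letters starting 204 and 52 bases before the start site:
P2ry12: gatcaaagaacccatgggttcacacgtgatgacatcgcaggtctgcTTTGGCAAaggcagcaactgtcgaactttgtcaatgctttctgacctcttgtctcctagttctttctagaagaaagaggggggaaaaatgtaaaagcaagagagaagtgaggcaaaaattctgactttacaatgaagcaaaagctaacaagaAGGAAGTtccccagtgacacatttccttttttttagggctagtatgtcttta

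Genes of macrophages at the borders of the brain were higher in CD45hi cells. Of 18 such genes 14 were called higher and 0 lower (77.8%, against 3.39% of all genes tested), with a median log2 fold change of 3.71, and their summed level was 3516 to 4859.5 cpm in CD45hi libraries and 522 to 764 cpm in CD45lo libraries. *Mrc1* (ENSMUSG00000026712, chromosome 2 from 14229392 to 14332057), the mannose receptor CD206, was measured at 1395, 1253, 1324 and 1432 cpm in the CD45hi libraries and 75.7, 69.99, 78.1 and 162 cpm in the CD45lo libraries. The CD45hi libraries were close to each other, all above the CD45lo libraries, and the difference was 13.99-fold (log2 fold change 3.81, SE 0.39, FDR = 1.73e-05). *Cd163*, the receptor of hemoglobin bound to haptoglobin, was at 135, 149, 152 and 184 cpm in the CD45hi libraries and 8.24, 10.1, 11.3 and 13.3 cpm in the CD45lo libraries (log2 fold change 3.85, FDR = 0.000504). *Lyve1*, a hyaluronan receptor of perivascular macrophages, was at 147, 104, 86.7 and 121 cpm in the CD45hi libraries and 5.35, 7.68, 9.47 and 15.2 cpm in the CD45lo libraries (log2 fold change 3.61, FDR = 0.00558). No CD45lo library came near the CD45hi level of these receptors. *Dab2*, an endocytic adaptor, was 14.1-fold higher (917 against 65.2 cpm, FDR = 3.75e-06), *F13a1*, the coagulation factor XIII subunit, 11.6-fold (257 against 22.1 cpm, FDR = 0.000427) and *Siglec1*, a sialic acid binding adhesion receptor, 20.5-fold (154 against 7.5 cpm, FDR = 9.55e-08). *Pf4*, a chemokine stored in platelets and made by these macrophages, was 17.7-fold higher (77.7 against 4.38 cpm, FDR = 0.000331). *Stab1* (572 against 285 cpm), *Gas6* (159 against 89.9 cpm), *Ednrb* (20.7 against 6.77 cpm) and *Colec12* (28.4 against 12.3 cpm) did not pass the test. The *Mrc1* window (chr2:14229164-14229413 of GRCm38.p6, plus strand) held PU.1 letters starting 211 bases and NF-Y letters starting 80 bases before the start site:
Mrc1: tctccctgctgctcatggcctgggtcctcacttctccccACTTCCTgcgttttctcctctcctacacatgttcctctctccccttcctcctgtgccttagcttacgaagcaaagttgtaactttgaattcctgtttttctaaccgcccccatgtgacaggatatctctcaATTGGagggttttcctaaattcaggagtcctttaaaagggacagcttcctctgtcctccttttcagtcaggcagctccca

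Monocyte genes were higher in CD45hi cells too. Classical monocytes, which enter inflamed tissue through the chemokine receptor CCR2, and patrolling monocytes, which crawl along vessel walls, were described by 15 genes each. Of the classical genes 9 were called higher and 0 lower (60%, against 3.39%), and of the patrolling genes 10 and 0 (66.7%). *Ccr2* (ENSMUSG00000049103, chromosome 9 from 124101950 to 124113557) was measured at 252, 356, 273 and 611 cpm in the CD45hi libraries and 9.12, 15.1, 7.07 and 32.5 cpm in the CD45lo libraries. The lowest CD45hi library was above the highest CD45lo library, and the difference was 23.4-fold (log2 fold change 4.55, SE 0.51, FDR = 3.99e-05). *Fn1*, fibronectin, was at 182 against 27.7 cpm (FDR = 0.00541), *Thbs1*, thrombospondin 1, at 136 against 12.9 cpm (FDR = 0.000293), and *Smpdl3a*, a phosphodiesterase, at 92.02 against 20.3 cpm (FDR = 0.00901). Some defining genes were not called. *Ly6c2*, part of the Ly6C antigen, was at 8.52, 21.8, 11.2 and 16.03 cpm in the CD45hi libraries and 1.65, 6.02, 1.48 and 3.86 cpm in the CD45lo libraries, without overlap (log2 fold change 2.14, SE 0.78, edgeR glmTreat FDR = 0.214). *Chil3*, a chitinase-like protein, was at 41.7, 312, 6.86 and 107 cpm in CD45hi and 51.1, 109, 45.6 and 75.9 cpm in CD45lo libraries, which overlapped. The summed classical list was at 686 to 1599 cpm in CD45hi libraries and 125 to 231 cpm in CD45lo libraries, lowest in CD45hi replicate 3.

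Among patrolling monocyte genes *Nr4a1*, the nuclear receptor these cells need, was at 140.5, 140.0, 123 and 302 cpm in the CD45hi libraries and 7.29, 14.4, 10.6 and 6.7 cpm in the CD45lo libraries (18.1-fold, log2 fold change 4.17, SE 0.33, FDR = 8.5e-07). *Ace*, the angiotensin converting enzyme, was at 79.2, 37.6, 49.7 and 60.5 cpm in the CD45hi libraries and 0.824, 2.02, 0.123 and 1.99 cpm in the CD45lo libraries (45.2-fold, log2 fold change 5.5, SE 0.7, FDR = 0.00011), and *Ear2*, an eosinophil-type ribonuclease, at 41.8 against 0.637 cpm (FDR = 0.000312). *Itgal*, the CD11a chain of the integrin LFA-1, was at 192, 144, 156 and 205 cpm in the CD45hi libraries and 1.76, 4.62, 1.84 and 8.62 cpm in the CD45lo libraries (41.1-fold, log2 fold change 5.36, SE 0.56, FDR = 1.57e-05). All CD45hi libraries lay above all CD45lo libraries for these genes. The paper describes CD11a as a marker of peripheral immune cells, so *Itgal* and the count of this list are not particular to patrolling monocytes. *Cd36*, a scavenger receptor for lipids, was at 125 against 4.1 cpm (FDR = 1.61e-05) and *Cd300ld*, an immune receptor, at 98.4 against 3.12 cpm (FDR = 4.19e-05). The summed patrolling list was at 934 to 1439 cpm in CD45hi libraries and 199 to 227 cpm in CD45lo libraries and varied less between CD45hi libraries than the classical list.

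Genes of mature neutrophils were higher in CD45hi cells, while genes of their precursors did not pass glmTreat in the main fit. Of 22 genes of mature neutrophils 12 were called higher and 0 lower (54.5%). Of 11 granule and precursor genes tested 0 were called by glmTreat, with 1 at an unadjusted p under 0.05 (DESeq2 called 1 and limma-voom 0). A block for the replicate number, whose meaning the labels do not give, called 2 in the 8 chow libraries alone and 0 with all 15 libraries. *S100a8* and *S100a9* encode the calprotectin pair that fills neutrophil cytosol. *S100a8* was measured at 383, 343, 125 and 355 cpm in the CD45hi libraries and 16.2, 52.1, 5.04 and 28.5 cpm in the CD45lo libraries (log2 fold change 3.56, FDR = 0.00125), and *S100a9* at 968, 1108, 420.2 and 1290.3 cpm in the CD45hi libraries and 56.4, 155, 22.5 and 105 cpm in the CD45lo libraries (log2 fold change 3.48, SE 0.52, FDR = 0.000705). CD45hi replicate 3 was lowest for both and still above every CD45lo library. *Cxcr2* (ENSMUSG00000026180, chromosome 1 from 74153989 to 74161246), the receptor that draws neutrophils to CXC chemokines, was at 529.8, 385, 320.3 and 515 cpm in the CD45hi libraries and 23.2, 18.5, 14.4 and 21.4 cpm in the CD45lo libraries, a 22.5-fold difference (log2 fold change 4.5, SE 0.24, FDR = 1.28e-08). *Mmp8*, the neutrophil collagenase, was at 215 against 11.9 cpm (FDR = 0.000237), *Hdc*, the enzyme of histamine synthesis, at 207 against 5.02 cpm (FDR = 1.71e-05), and *Retnlg*, a resistin-like protein, at 140.5 against 4.99 cpm (FDR = 0.000808). Not every gene of the list was called. *Csf3r*, the G-CSF receptor, was at 885, 624, 609 and 801 cpm in the CD45hi libraries and 465, 622, 548 and 570.3 cpm in the CD45lo libraries, which overlapped (log2 fold change 0.4, FDR = 1). *Ly6g*, the neutrophil surface antigen, was low, at 7.34, 3.98, 0 and 0.129 cpm in CD45hi and 0.765, 0.571, 0 and 1.02 cpm in CD45lo libraries.

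Granule genes varied between libraries of a gate. Their summed level was 903, 1905, 153 and 922 cpm in the CD45hi libraries and 245, 762, 68.6 and 400.0 cpm in the CD45lo libraries. On both sides replicate 3 was lowest and replicate 2 highest. *Ngp*, neutrophilic granule protein, was at 483, 1112, 55.2 and 446 cpm in the CD45hi libraries and 169, 427, 44.8 and 246 cpm in the CD45lo libraries, and *Ltf*, lactoferrin, at 111, 256, 13.5 and 195 cpm in CD45hi and 28.4, 73.7, 8.73 and 63.8 cpm in CD45lo libraries. *Camp*, the cathelicidin, was at 20.4 against 14.2 cpm and overlapped. Summed genes of red blood cells and choroid plexus moved between libraries as well, at 53.6 to 451 cpm in CD45hi libraries and 61.3 to 427 cpm in CD45lo libraries, with 0 of 6 called by glmTreat, 1 at an unadjusted p under 0.05 and 0 called by DESeq2 and by limma-voom. The *S100a8* window (chr3:90668821-90669070 of GRCm38.p6, plus strand) held PU.1 letters starting 172 bases before the start site:
S100a8: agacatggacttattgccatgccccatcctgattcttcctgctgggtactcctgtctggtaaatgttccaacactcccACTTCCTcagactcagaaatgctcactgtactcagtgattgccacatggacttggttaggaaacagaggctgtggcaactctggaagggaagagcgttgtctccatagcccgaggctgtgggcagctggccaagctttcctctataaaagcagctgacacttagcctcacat

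**Figure D3:**
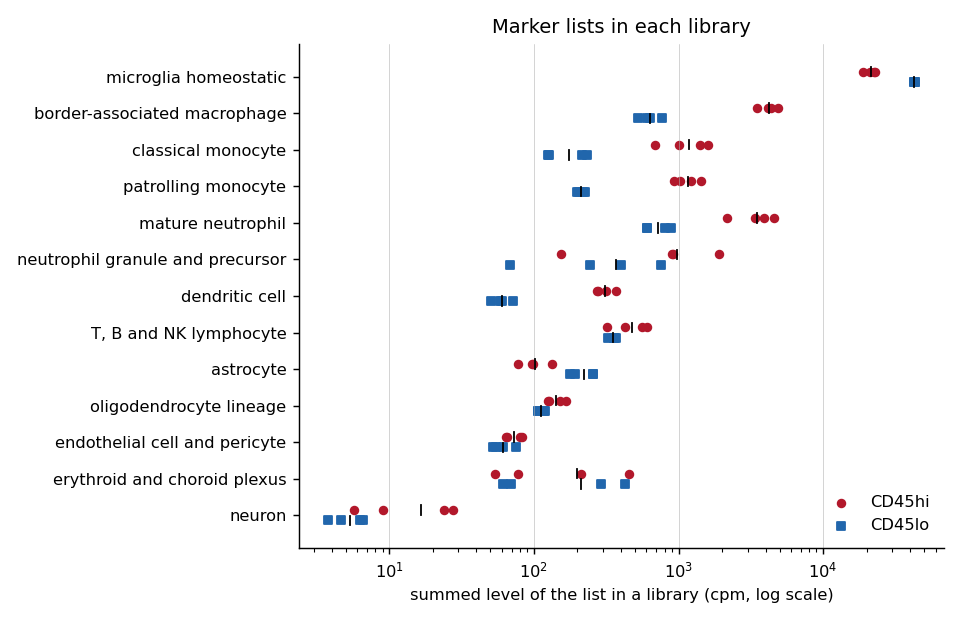
Summed cpm of 13 marker lists in each library on a log scale, with CD45hi libraries as circles, CD45lo libraries as squares and black bars at the group means. The microglial list is at 18866 cpm or more in every CD45hi library, while macrophage, monocyte and mature neutrophil lists do not overlap between the gates and the granule list does.

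Genes of other cells were low or called in part. Of 13 dendritic cell genes tested 3 were called higher (23.1%, against 3.39% of all genes), *Cd209a* (155 against 9.04 cpm, FDR = 9.79e-05), *Kmo* (17.7 against 0.347 cpm, FDR = 0.0199) and *Dpp4* (11.1 against 0.359 cpm, FDR = 0.0316), while *Flt3* (24.5 against 7.99 cpm), *Zbtb46* (17.7 against 4.89 cpm) and *Xcr1* (7.25 against 5.05 cpm), which define these cells more narrowly, were not. Of 24 lymphocyte genes 15 passed the filter on low values, and 3 of these were called higher (20%). The T cell receptor chain genes *Cd3d*, *Cd3e* and *Cd3g* did not pass the filter, in cells that were gated as negative for CD3e. *Cd4*, also carried by macrophages, was at 10.9, 11.8, 79.4 and 42.3 cpm in the CD45hi libraries and 0.706, 0.934, 0.983 and 0.397 cpm in the CD45lo libraries (log2 fold change 5.56, FDR = 0.011). *Nkg7*, a cytotoxic granule protein of natural killer cells, was at 1.11, 4.8, 8.36 and 9.59 cpm in CD45hi and 0, 0.104, 0 and 0 cpm in CD45lo libraries, where every CD45lo library was at 3 counts or fewer, so the difference was at least 32.4-fold. *Klrb1c*, the NK1.1 receptor of the same cells, was at 8.72, 18.96, 7.04 and 0 cpm in CD45hi libraries and at least 47.1-fold higher in the mean (FDR = 0.0209), although CD45hi replicate 4 overlapped with CD45lo libraries. The lymphocyte count was 6 without CD45hi replicate 3 and 2 without CD45lo replicate 1, 2 or 3, and the dendritic count was 1 without CD45lo replicate 1 or 2. Neuron genes summed to 5.7 to 27.4 cpm in CD45hi libraries and 3.79 to 6.51 cpm in CD45lo libraries, with 0 of 4 called by glmTreat, DESeq2 or limma-voom (0 at an unadjusted p under 0.05). Oligodendrocyte genes summed to 126 to 166 cpm in CD45hi libraries and 106 to 119.9 cpm in CD45lo libraries, with 0 of 7 called by glmTreat and limma-voom, 1 by DESeq2 and 2 at an unadjusted p under 0.05. Of 5 astrocyte genes 2 were lower in CD45hi cells, *Slc1a3*, a glutamate transporter (43.5 against 134 cpm, FDR = 0.00117), and *Aldh1l1*, which had 0 counts in every CD45hi library against 0.647, 0.882, 1.91 and 0.397 cpm, at least 3.63-fold lower. *Gfap* was at 0.9 against 0.282 cpm. Among endothelial genes *Flt1* was called higher (31.8 against 5.31 cpm, FDR = 0.0197), while *Cldn5*, which defines brain endothelium, was at 0.352 against 0.137 cpm. The part of other cells in the differences was not tested. Leaving out 1 library ended the call of *Kmo* (CD45lo replicate 1, 2 or 3, FDR = 0.0541 to 0.0743), *Dpp4* (CD45hi replicate 4 or CD45lo replicate 1, 2 or 4, FDR = 0.078 to 0.111) and *Klrb1c* (any CD45lo library, FDR = 0.0552 to 0.0614). An FDR above 0.05 without 1 library was found for *Aldh1l1* (any CD45hi library or CD45lo replicate 1, 2 or 4, FDR = 0.0508 to 0.0718) and *Flt1* (CD45hi replicate 2 or CD45lo replicate 1, FDR = 0.051 to 0.0787). The test was passed without 1 library by *Flt3* (CD45hi replicate 3, FDR = 0.0413).

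**Figure D4:**
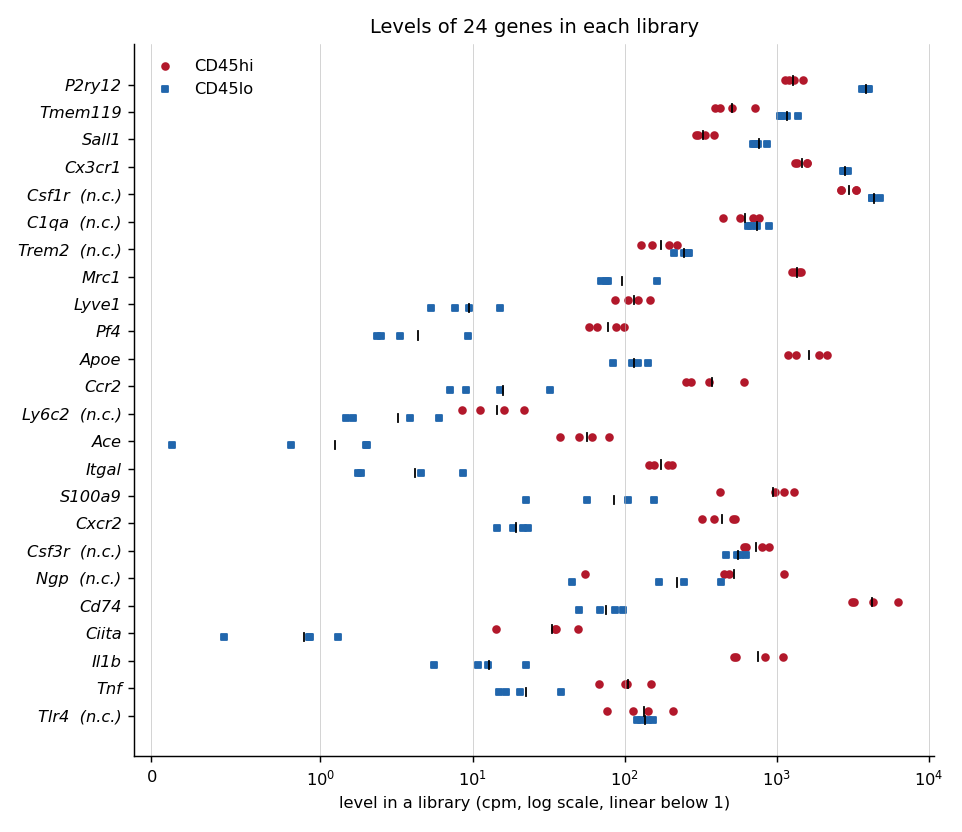
Levels of 24 genes in each of the 8 libraries in cpm, on a log scale that is linear below 1, with CD45hi libraries as circles, CD45lo libraries as squares, black bars at the means and n.c. for genes not called. Microglial genes at the top differ by far less than the antigen presentation, monocyte and neutrophil genes, and C1qa, Trem2, Csf3r, Ngp and Tlr4 overlap.

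Genes of antigen presentation by MHC class II differed widely between the gates. Class II molecules show peptides from ingested material to CD4 T cells, and the alpha and beta chains, the invariant chain CD74 that guards the groove and the peptide exchange factor H2-DM are driven together by the coactivator CIITA. Of 13 genes tested 6 were called higher and 0 lower (46.2%, against 3.39%). *Cd74* was measured at 4275, 3220.4, 3117 and 6237 cpm in the CD45hi libraries and 49.95, 68.4, 86.2 and 96.9 cpm in the CD45lo libraries, a 55.9-fold difference (log2 fold change 5.8, SE 0.34, FDR = 2.51e-08). *H2-Aa* was at 2103, 2074, 2144 and 3171 cpm in the CD45hi libraries and 34.3, 35.9, 72.5 and 80.5 cpm in the CD45lo libraries (42.5-fold, log2 fold change 5.41, SE 0.33, FDR = 4.35e-08). *H2-Ab1*, its partner, was at 1550.3, 1700.2, 1739.7 and 2377 cpm in the CD45hi libraries and 31.9, 22, 52.6 and 57.2 cpm in the CD45lo libraries (45-fold, FDR = 1.28e-08). The lowest CD45hi library lay far above the highest CD45lo library in each case, and CD45hi replicate 4 was highest. *H2-Eb1* was 47.6-fold higher (716 against 15.04 cpm, FDR = 9.53e-08). *Ciita* was at 35.5, 34.7, 14.2 and 49.2 cpm in the CD45hi libraries and 0.941, 0.934, 0.43 and 1.3 cpm in the CD45lo libraries (log2 fold change 5.2, SE 0.89, FDR = 0.00186). The folds of the exchange factor genes were smaller. *H2-DMa* was 2.2-fold higher (368 against 168 cpm, FDR = 0.0468), and *H2-DMb1* (101 against 35.7 cpm, FDR = 0.0856) did not pass. *Rfxank*, a subunit of the RFX complex that binds class II promoters, was at 1.05, 1.32, 1.41 and 10.04 cpm in the CD45hi libraries and 11.5, 7.63, 9.65 and 12.7 cpm in the CD45lo libraries and not called. Per transcript length, *Cd74* was at 5224 TPM in CD45hi and 132 TPM in CD45lo cells and *H2-Aa* at 3735 TPM in CD45hi and 118 TPM in CD45lo cells. Left without 1 library, the test no longer called *H2-DMa* (CD45hi replicate 1 or 4 or any CD45lo library, FDR = 0.0552 to 0.168). With 1 library left out the test called *Rfxank* (CD45hi replicate 4, FDR = 0.00964).

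Promoters of *H2-Aa* and *H2-Eb1* are shown because these genes moved together and their factors bind next to a CCAAT box. Both windows held CCAAT letters within 60 bases of the start site, on the strand opposite to the gene at 48 bases in *H2-Aa* (chr17:34287824-34288073 of GRCm38.p6, minus strand) and at 59 bases in *H2-Eb1* (chr17:34305617-34305866 of GRCm38.p6, plus strand), which held them once more on its own strand at 35 bases:
H2-Aa: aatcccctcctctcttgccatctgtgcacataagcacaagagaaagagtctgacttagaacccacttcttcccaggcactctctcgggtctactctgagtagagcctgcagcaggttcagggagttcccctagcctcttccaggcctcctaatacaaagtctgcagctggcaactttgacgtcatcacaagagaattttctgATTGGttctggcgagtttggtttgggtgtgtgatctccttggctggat
H2-Eb1: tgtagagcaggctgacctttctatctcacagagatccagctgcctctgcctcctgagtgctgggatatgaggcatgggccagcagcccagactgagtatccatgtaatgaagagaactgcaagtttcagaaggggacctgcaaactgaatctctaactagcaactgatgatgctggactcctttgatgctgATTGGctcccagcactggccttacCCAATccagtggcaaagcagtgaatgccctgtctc

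MHC class I, which shows peptides from inside the cell, differed less. Of 20 genes 4 were called higher and 0 lower (20%, against 3.39% of all genes). *H2-K1* was at 1038, 912, 1239 and 1130.3 cpm in the CD45hi libraries and 435, 440.4, 612 and 335 cpm in the CD45lo libraries (2.37-fold, log2 fold change 1.25, SE 0.17, FDR = 0.00499) and *H2-D1* at 909 against 342 cpm (2.66-fold, FDR = 0.000235). *H2-Q7*, of the neighbouring nonclassical genes, was 5.79-fold higher (212 against 36.6 cpm, FDR = 0.00082) and *H2-Q6* 3.72-fold (61.97 against 16.7 cpm, FDR = 0.0132). These genes share reads with close copies, and RSEM divides such reads between them, so single members are uncertain. *B2m*, the shared light chain, was at 3754 ± 415 cpm in CD45hi and 2540.2 ± 334 cpm in CD45lo cells without overlap, but its 1.48-fold difference did not pass the threshold (FDR = 0.841). Peptide loading genes *Tap1* (50.7 against 24.2 cpm), *Tapbp* (102 against 109.9 cpm) and *Psmb8* (84.3 against 43.4 cpm) were not called. The call was lost without 1 library for *H2-Q6* (CD45lo replicate 1 or 2, FDR = 0.0545 to 0.0594).

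Chemokines were among the lists with the most calls. Of 21 tested 13 were higher and 0 lower in CD45hi cells (61.9%), with a median log2 fold change of 4.03 (3.04 with the 4 genes at or below 3 counts throughout a group set to their bounds). *Cxcl2*, a neutrophil attractant, was at 205, 141, 114 and 151 cpm in the CD45hi libraries and 1.06, 0.83, 1.6 and 2.67 cpm in the CD45lo libraries (98.95-fold, log2 fold change 6.63, SE 0.61, FDR = 3.43e-06). *Ccl3* was at 864, 748, 1010.3 and 849.8 cpm in the CD45hi libraries and 366, 483, 345 and 248 cpm in the CD45lo libraries (2.41-fold, log2 fold change 1.27, SE 0.21, FDR = 0.0156). Neither gene overlapped between the gates, and the fold was far larger for *Cxcl2*. *Ccl2*, the ligand of CCR2, was at 102 against 27.2 cpm (FDR = 0.00552), *Cxcl16* at 155 against 36.7 cpm (FDR = 0.000267) and *Cxcl9*, an interferon gamma target, at 42.8 against 0.457 cpm (FDR = 8.84e-05). *Ccl4*, which sits beside *Ccl3* in the genome, was at 80.2 against 42.7 cpm and did not pass (FDR = 0.362). Among 15 chemokine receptors tested 5 were higher (33.3%, against 3.39% of all genes) and *Cx3cr1* alone was lower (6.67%, against 0.588%). *Ccrl2*, which presents chemerin, was at 184 against 52.7 cpm (FDR = 0.00295), *Cxcr4*, the receptor that holds leukocytes in bone marrow, at 99.2 against 3.26 cpm (FDR = 5.36e-06) and *Ccr1* at 44.04 against 3.83 cpm (FDR = 0.000169). Of 13 receptors for other attractants 2 were higher (15.4%, against 3.39% of all genes), *C5ar1* (231 against 87.7 cpm, FDR = 0.00339) and the formyl peptide receptor gene *Fpr1* (19.6 against 0.925 cpm, FDR = 0.0331). Leaving out 1 library ended the call of *Ccl3* (CD45lo replicate 4, FDR = 0.0616) and *Fpr1* (CD45hi replicate 2 or 4 or any CD45lo library, FDR = 0.058 to 0.11).

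Cytokine genes of the interleukin-1 and TNF pathways split by gene. Of 30 tested 9 were higher and 0 lower (30%), and the median log2 fold change was 0.68. *Il1b* (ENSMUSG00000027398, chromosome 2 from 129364570 to 129371139), the secreted form of interleukin-1 that inflammasomes cleave, was at 839, 541, 526 and 1089 cpm in the CD45hi libraries and 10.9, 5.55, 12.7 and 22.5 cpm in the CD45lo libraries, 58.02-fold higher (log2 fold change 5.86, SE 0.4, FDR = 1.26e-07). *Il1a*, its relative, was at 195, 216, 276 and 230.3 cpm in the CD45hi libraries and 168, 225, 182 and 156 cpm in the CD45lo libraries, which overlapped (log2 fold change 0.33, FDR = 1). The decoy receptor *Il1r2* was at 77.6 against 1.4 cpm (FDR = 0.00115) and the antagonist *Il1rn* at 26.6 against 1.74 cpm (FDR = 0.00295). *Tnf* was at 104, 100.4, 149 and 67.3 cpm in the CD45hi libraries and 16.5, 38.03, 20.6 and 14.9 cpm in the CD45lo libraries (4.67-fold, log2 fold change 2.22, SE 0.39, FDR = 0.00561). Genes that the NF-kappaB pathway switches on were among those higher. They included its inhibitors *Tnfaip3*, at 507 against 183 cpm (FDR = 0.00216), and *Nfkbia*, at 121 against 38.6 cpm (FDR = 0.00434). *Nfkbiz* was at 457 against 115 cpm (FDR = 5.62e-05). Inflammasome genes were largely not called. *Nlrc4* was at 35.5 against 0.869 cpm (FDR = 0.0144), while *Nlrp3* (101 against 87.2 cpm) and *Casp1* (93.4 against 56.8 cpm) were not. Of 24 genes of Toll-like receptors and their adaptors *Tlr8* alone was called (4.17%, against 3.98% of all genes in any direction), at 59.3, 85.04, 59.1 and 188 cpm in the CD45hi libraries and 1.47, 1.66, 2.15 and 5.05 cpm in the CD45lo libraries (37.7-fold, log2 fold change 5.24, SE 0.69, FDR = 0.000164). *Tlr2* was at 187 against 102 cpm and *Tlr3* at 113 against 229 cpm, without overlap and in opposite directions, and neither passed in the fit of all libraries (FDR = 0.269 and 0.0746). An FDR above 0.05 without 1 library was found for *Nlrc4* (CD45hi replicate 4 or CD45lo replicate 1 or 3, FDR = 0.0567 to 0.0658). The test was passed without 1 library by *Tlr3* (CD45hi replicate 3, FDR = 0.0143).

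Genes of adhesion and passage through vessel walls were called in part. Of 21 integrin subunits tested 3 were higher (14.3%, against 3.39% of all genes), *Itgal*, *Itga4* and *Itgax*. *Itga4*, the alpha chain of VLA-4, was at 338, 272, 399.7 and 469.5 cpm in the CD45hi libraries and 9.24, 14.3, 20.5 and 29.6 cpm in the CD45lo libraries (20.1-fold, log2 fold change 4.33, SE 0.35, FDR = 8.5e-07). *Itgax*, which encodes CD11c, was at 77.04 against 11.1 cpm (FDR = 0.00136). The beta chain *Itgb2*, with which CD11a and CD11c pair, was at 574 against 467 cpm and not called. Of 21 other adhesion genes tested 7 were higher (33.3%). *Cd44*, a hyaluronan receptor, was at 399, 214, 222 and 401 cpm in the CD45hi libraries and 7.82, 19.6, 12.7 and 15.6 cpm in the CD45lo libraries (22.2-fold, log2 fold change 4.47, SE 0.43, FDR = 6.05e-06). *Alcam* was at 91.8 against 3.19 cpm (FDR = 0.00121) and *Vcam1* at 87.8 against 22.8 cpm (FDR = 0.0162). *Selplg*, the ligand of selectins, was at 574 against 1085 cpm, lower in CD45hi cells without overlap but not past the test (FDR = 0.0894). Of 16 matrix proteases and inhibitors tested 5 were higher (31.25%). They were *Mmp8*, *Adam19* (91.9 against 3.96 cpm, FDR = 0.000311), *Adam8* (61.7 against 3.67 cpm, FDR = 0.00296), the gelatinase *Mmp9* (99.5 against 2.83 cpm, FDR = 0.00181) and *Mmp13* (12.4 against 0.143 cpm, FDR = 0.0325). Left without 1 library, the test no longer called *Vcam1* (CD45hi replicate 1 or CD45lo replicate 2 or 3, FDR = 0.0511 to 0.0612) and *Mmp13* (CD45hi replicate 2 or 3 or CD45lo replicate 1, 3 or 4, FDR = 0.0558 to 0.105). With 1 library left out the test called *Selplg* (CD45hi replicate 1, FDR = 0.0294).

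Innate immune receptors of several families differed member by member. Of 21 C-type lectins tested 12 were higher and 0 lower (57.1%), with *Mrc1* and *Cd209a* among them. *Clec12a*, an inhibitory receptor for uric acid crystals, was at 72.2, 167, 166 and 268 cpm in the CD45hi libraries and 2.71, 13.2, 2.89 and 8.68 cpm in the CD45lo libraries (24.4-fold, log2 fold change 4.61, SE 0.64, FDR = 0.000299). *Clec7a*, the beta-glucan receptor dectin-1, was at 102, 131, 122 and 153 cpm in the CD45hi libraries and 11.4, 8.61, 17.8 and 17.2 cpm in the CD45lo libraries (9.22-fold, log2 fold change 3.2, SE 0.31, FDR = 1.08e-05). *Clec4a3* was at 92.7 against 60.6 cpm and not called, while its genomic neighbours *Clec4d* (49.5 against 0.776 cpm, FDR = 0.00146), *Clec4e* (71.8 against 1.95 cpm, FDR = 0.000326) and *Clec4n* (24.8 against 1.71 cpm, FDR = 0.0139), receptors for microbial glycolipids and mannans, were higher. Of 22 genes of the TREM, CD300, PIR and SIRP families 10 were higher (45.45%, against 3.39% of all genes). *Trem1*, an amplifying receptor of neutrophils and monocytes, was at 97.3, 108, 71.96 and 144 cpm in the CD45hi libraries and 0.588, 1.3, 0.799 and 2.1 cpm in the CD45lo libraries (87.2-fold, log2 fold change 6.45, SE 0.52, FDR = 8.35e-07). *Trem2*, its lipid-sensing relative, was at 195, 127, 152 and 220.0 cpm in the CD45hi libraries and 211, 261, 262 and 243 cpm in the CD45lo libraries, which overlapped (log2 fold change -0.49, FDR = 0.91). Their shared adaptor *Tyrobp* was at 677 against 472 cpm and not called. *Pirb* was at 301 against 45.5 cpm (FDR = 5.4e-06), and *Sirpa*, the receptor of the CD47 signal, at 893 against 1435 cpm, lower without overlap but not past the test (FDR = 0.396). Of 7 Fc receptor genes *Fcgr4* was higher (24.4 against 5.27 cpm, FDR = 0.0474) and *Fcrls*, a microglial gene, lower (495 against 1374 cpm, FDR = 0.000637), and *Fcgr1*, *Fcgr2b* and *Fcgr3* were not called (187 against 210.5 cpm, 168 against 165 cpm and 394 against 488 cpm). In the MS4A cluster 3 of 9 genes were higher (33.3%, against 3.39% of all genes), *Ms4a7* (144 against 7.18 cpm, FDR = 0.000169), *Ms4a6c* (59.6 against 11.8 cpm, FDR = 0.000705) and *Ms4a4c* (18.1 against 1.26 cpm, FDR = 0.00876). The call was lost without 1 library for *Clec4n* (CD45lo replicate 1, 2 or 4, FDR = 0.0524 to 0.0629) and *Fcgr4* (CD45hi replicate 1, 2 or 4 or any CD45lo library, FDR = 0.054 to 0.148).

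Of 18 complement genes 5 were higher in CD45hi cells and 0 lower (27.8%, against 3.39% of all genes). Genes of C1q, which starts the classical cascade, were at near equal levels, *C1qa* at 699.9, 442, 574 and 757 cpm in the CD45hi libraries and 649.6, 893, 674 and 734 cpm in the CD45lo libraries, *C1qb* at 1199 against 1229 cpm and *C1qc* at 1093 against 1016 cpm, with overlap and log2 fold changes of -0.25, -0.035 and 0.11. Among the genes called, *C4b*, which follows C1q in the cascade, was at 149.7, 115, 125 and 176 cpm in the CD45hi libraries and 7.35, 6.54, 13.5 and 14.4 cpm in the CD45lo libraries (13.6-fold, log2 fold change 3.77, SE 0.32, FDR = 1.87e-06). *Cd93*, a receptor of phagocytes, was at 234 against 13.9 cpm (FDR = 0.000101), *Cfp*, properdin, at 14.4 against 0.795 cpm (FDR = 0.00748) and *C2* at 13.6 against 0.925 cpm (FDR = 0.0456). *C3*, the central component, was at 112, 175, 71.1 and 116 cpm in the CD45hi libraries and 12.3, 35.6, 2.34 and 26.6 cpm in the CD45lo libraries, without overlap, and just missed the threshold (log2 fold change 2.62, SE 0.67, edgeR glmTreat FDR = 0.0513). It was called by DESeq2 (FDR = 0.00382), limma-voom (FDR = 0.0283) and the edgeR 4 quasi-likelihood form (FDR = 0.00887). Leaving out 1 library ended the call of *C2* (CD45hi replicate 1, 2 or 4 or any CD45lo library, FDR = 0.0687 to 0.146). The test was passed without 1 library by *C3* (CD45hi replicate 3 or CD45lo replicate 2, FDR = 0.0471 to 0.0477).

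Genes of the interferon response were higher in CD45hi cells, 14 of 33 and 0 lower (42.4%, against 3.39%), with a median log2 fold change of 2.15. *Ifitm3*, which blocks viral entry, was at 377, 281, 248 and 584 cpm in the CD45hi libraries and 18.7, 24.1, 26.6 and 37.96 cpm in the CD45lo libraries (13.9-fold, log2 fold change 3.79, SE 0.36, FDR = 5.67e-06), and *Ifitm2* at 254 against 8.72 cpm (FDR = 1.11e-06). *Oasl2* was at 113, 144, 124 and 162 cpm in the CD45hi libraries and 32.1, 13.96, 14.01 and 12.4 cpm in the CD45lo libraries (7.48-fold, log2 fold change 2.9, SE 0.33, FDR = 6.71e-05), *Oas3*, which makes the activator of RNase L, at 93.4 against 3.46 cpm (FDR = 0.000162), and *Ifit1*, which binds viral RNA, at 28.9 against 3.05 cpm (FDR = 0.00438). Every CD45hi library was above every CD45lo library for 22 of the 33 genes, where 8.26% of all genes were. Other standard members were not called, among them *Ifit2* (51.5 against 11.7 cpm), *Ifit3* (29.4 against 13.5 cpm), *Isg15* (5.78 against 3.4 cpm) and *Mx1* (42.99 against 9.59 cpm). With 1 library left out the test called *Ifit2* (CD45hi replicate 3, FDR = 0.0471).

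**Figure D5:**
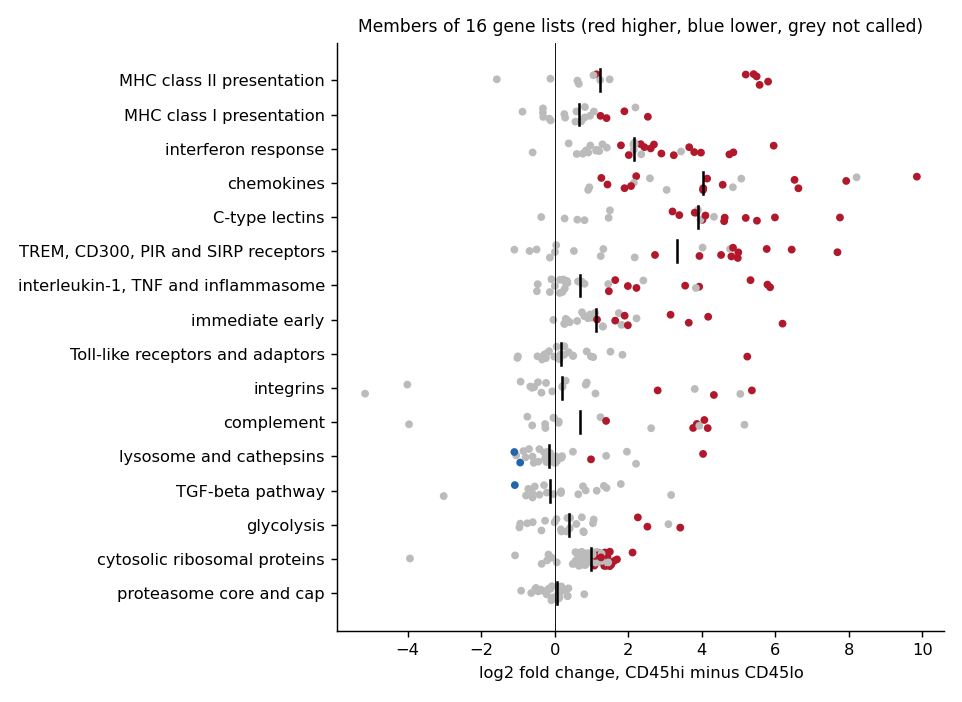
Log2 fold change (CD45hi minus CD45lo) of the tested members of 16 gene lists, one point per gene, with genes called higher in red, called lower in blue and not called in grey, and black bars at the medians. Chemokines, C-type lectins and TREM family receptors have medians above 3, whereas Toll-like receptors, lysosomal genes, the TGF-beta pathway and the proteasome lie near 0.

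Transcription factors of the myeloid lineage were called in part. Of 45 tested 7 were higher (15.6%, against 3.39% of all genes) and 1 lower (2.22%, against 0.588%). *Sall1*, the zinc finger factor that holds microglial identity, was at 385, 302, 335 and 293 cpm in the CD45hi libraries and 746, 862, 721 and 699 cpm in the CD45lo libraries (43.4% of the CD45lo level, log2 fold change -1.2, SE 0.14, FDR = 0.00248). *Sall3*, at 54.4 against 104 cpm, did not pass. *Bhlhe40*, a basic helix-loop-helix repressor, was at 15.99, 74.9, 47.9 and 142 cpm in the CD45hi libraries and 3, 1.14, 1.78 and 1.99 cpm in the CD45lo libraries (35.4-fold, log2 fold change 5.15, SE 0.8, FDR = 0.000757), while its relative *Bhlhe41* was at 199 against 257 cpm. *Rara*, a retinoic acid receptor, was at 53.98 against 2.05 cpm (FDR = 0.000412), *Runx2* at 42.9 against 2.41 cpm (FDR = 0.000107), *Runx3* at 18.9 against 0.366 cpm (FDR = 0.00295) and *Cebpb* at 21.8 against 3.73 cpm (FDR = 0.00485). *Spi1*, which encodes PU.1, was at 173 against 91.01 cpm and *Irf8* at 119 against 152 cpm, and neither was called. Of 22 genes of the TGF-beta pathway *Tgfbr1* alone was called (4.5%, against 3.98% of all genes in any direction), lower, at 1396, 1196, 1620.4 and 1246 cpm in the CD45hi libraries and 3447, 2454, 2902 and 2785 cpm in the CD45lo libraries (47.1%, log2 fold change -1.09, SE 0.13, FDR = 0.00444), while *Tgfbr2* was at 501 against 614 cpm and *Smad3* at 87.5 against 140.1 cpm. Of 9 genes of colony stimulating factors and receptors *Csf2ra* was higher (107 against 28.9 cpm, FDR = 0.00761), which is 11.1%, against 3.39% of all genes.

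Immediate early genes, which answer stimuli within minutes, were expressed in both gates. Of 26 tested 8 were higher in CD45hi cells and 0 lower (30.8%, against 3.39% of all genes). *Zfp36*, which destroys cytokine mRNA, was at 4656, 4821, 5675 and 5008 cpm in the CD45hi libraries and 2138, 2665, 2795 and 1489 cpm in the CD45lo libraries (2.22-fold, log2 fold change 1.15, SE 0.18, FDR = 0.0176). The CD45lo libraries spread widely and still lay below all CD45hi libraries. *Fosl2* was at 314, 269, 121 and 377 cpm in the CD45hi libraries and 31.6, 33.9, 31.2 and 25.02 cpm in the CD45lo libraries (8.88-fold, log2 fold change 3.15, SE 0.31, FDR = 1.61e-05), and *Ier3* at 121 against 32.5 cpm (FDR = 0.00162). *Fos* (509 against 238 cpm), *Jun* (1105 against 922 cpm) and *Egr1* (1138 against 681 cpm) were not called. The 26 genes summed to 13422, 14880, 15375 and 13351 cpm in the CD45hi libraries and to 6656, 10703, 9431 and 4772 cpm in the CD45lo libraries. Cells of both gates had gone through the same dissociation and sort, and the part of that procedure in these levels was not tested. An FDR above 0.05 without 1 library was found for *Zfp36* (CD45lo replicate 1 or 4, FDR = 0.0532 to 0.0583).

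Lipid genes were called mostly among those of uptake and transport. Of 21 genes of uptake, efflux and storage 6 were higher (28.6%, against 3.39% of all genes). *Apoe* (ENSMUSG00000002985, chromosome 7 from 19696109 to 19699188), the lipid carrier of the brain, was at 1897, 1176, 1324 and 2133 cpm in the CD45hi libraries and 84.1, 112, 123 and 143 cpm in the CD45lo libraries (14.1-fold, log2 fold change 3.82, SE 0.27, FDR = 1.64e-07). *Msr1*, a scavenger receptor for modified lipoproteins, was at 132 against 11.8 cpm (FDR = 1.08e-05), *Lpl*, lipoprotein lipase, at 114 against 28 cpm (FDR = 0.00011) and *Plin2*, a lipid droplet coat, at 52.99 against 15.6 cpm (FDR = 0.0358). *Abca1* and *Abcg1*, which export cholesterol, were not called (474 against 627 cpm and 117 against 161 cpm). Of 24 genes of cholesterol synthesis 1 was higher and 0 lower (4.17%, against 3.98% of all genes), and none without CD45hi replicate 1 or 4 or any CD45lo library. Genes that rise in microglia at amyloid plaques overlap with these. Of 24 such genes 10 were higher, *Apoe*, *Lpl*, *Clec7a*, *Itgax*, *Lyz2* (5481, 5622, 4576 and 6241 cpm in the CD45hi libraries and 474, 605, 482 and 811 cpm in the CD45lo libraries, 9.25-fold), the receptor tyrosine kinase *Axl* (261, 309, 188 and 345 cpm in the CD45hi libraries and 17.8, 13.2, 23.1 and 12.03 cpm in the CD45lo libraries, 16.7-fold), *Igf1* (96.5 against 7.71 cpm, FDR = 7.15e-05), *Spp1*, osteopontin (57.01, 44.2, 35.01 and 187 cpm in the CD45hi libraries and 3.65, 0.778, 0.676 and 2.1 cpm in the CD45lo libraries, 44.8-fold, log2 fold change 5.49, SE 0.74, FDR = 0.000208), *Ccl6* (97.5 against 36.1 cpm, FDR = 0.0262) and *Lgals3* (18.1 against 1.22 cpm, FDR = 0.00449). The 10 were 41.7% of those tested, against 3.39% of all genes. Several of them are also made by macrophages and monocytes, whose lists moved with them. The cells that these transcripts came from cannot be told apart in bulk RNA, and this was not tested. *Cst7* (18.2 against 5.31 cpm), *Ctsd* (3197 against 4859 cpm) and *Cd9* (174 against 237 cpm) were not called. Of 23 genes near Alzheimer's disease risk variants *Apoe* and *Sorl1*, a sorting receptor (376, 316, 237 and 504 cpm in the CD45hi libraries and 117, 117, 132 and 132 cpm in the CD45lo libraries, 2.88-fold, log2 fold change 1.53, SE 0.21, FDR = 0.00216), were higher. They were 8.7% of the 23, against 3.39% of all genes. Left without 1 library, the test no longer called *Plin2* (CD45hi replicate 1 or 2 or CD45lo replicate 2, 3 or 4, FDR = 0.0521 to 0.129) and *Ccl6* (CD45hi replicate 1 or 4 or CD45lo replicate 1, 2 or 3, FDR = 0.0534 to 0.0792).

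Enzymes and carriers of phagocytes were called singly. Of 18 NADPH oxidase and redox genes 3 were higher (16.7%, against 3.39% of all genes), and 1 without CD45lo replicate 1, 2 or 4. *Cybb* (ENSMUSG00000015340, chromosome X from 9435252 to 9487771), the electron-carrying subunit gp91phox, was at 938, 941, 822 and 1105 cpm in the CD45hi libraries and 46.6, 76.1, 31.1 and 97.7 cpm in the CD45lo libraries (15.1-fold, log2 fold change 3.92, SE 0.36, FDR = 4.92e-06). Its partner *Cyba* was at 38.9 against 34.4 cpm and the cytosolic subunit *Ncf1* at 258 against 311 cpm, and neither was called. *Gpx1* was at 224 against 99.5 cpm (FDR = 0.0181) and *Hmox1*, heme oxygenase 1, at 60.3 against 18.9 cpm (FDR = 0.035). Of 17 iron and heme genes 4 were higher, and 2 without CD45hi replicate 1 or CD45lo replicate 1 or 4. The 4 were 23.5% of those tested, against 3.39% of all genes. Both ferritin chains were among them, *Fth1* at 1825, 1837, 2081 and 2566 cpm in the CD45hi libraries and 929, 830.1, 1069 and 773 cpm in the CD45lo libraries (2.31-fold, log2 fold change 1.21, SE 0.14, FDR = 0.00153) and *Ftl1* at 1009.9 against 459.7 cpm (FDR = 0.0333). The call was lost without 1 library for *Gpx1* (CD45hi replicate 4 or CD45lo replicate 1, 2 or 4, FDR = 0.0555 to 0.0668), *Hmox1* (CD45hi replicate 1, 2 or 3 or CD45lo replicate 1, 2 or 4, FDR = 0.0556 to 0.121) and *Ftl1* (CD45hi replicate 1 or 4 or CD45lo replicate 1, 3 or 4, FDR = 0.0655 to 0.117). The *Cybb* window (chrX:9469325-9469574 of GRCm38.p6, minus strand) is shown because it held letters of 3 kinds, the interferon element at 167, 123 and 29 bases, AP-1 at 139 bases and NF-Y at 56 bases before the start site:
Cybb: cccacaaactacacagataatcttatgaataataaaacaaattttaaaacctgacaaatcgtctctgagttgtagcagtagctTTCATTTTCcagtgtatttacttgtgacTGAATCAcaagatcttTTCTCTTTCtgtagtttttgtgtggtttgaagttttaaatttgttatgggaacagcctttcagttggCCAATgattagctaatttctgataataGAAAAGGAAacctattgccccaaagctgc

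Of 32 lysosomal genes 2 were higher (6.25%, against 3.39% of all genes) and 2 lower (6.25%, against 0.588%). These counts fell to 0 and 1 without CD45lo replicate 1, 2 or 4. *Ctsc*, which activates granule proteases, was at 599 ± 34.5 cpm in CD45hi and 302 ± 5.22 cpm in CD45lo cells (FDR = 0.0225) and *Ctse* at 17.8 against 1.08 cpm (FDR = 0.0331), while *Lgmn*, legumain (568 ± 82.04 cpm in CD45hi and 1089 ± 7.89 cpm in CD45lo cells, FDR = 0.0267), was lower. *Ctsa* (515 against 618 cpm) and *Ctsb* (2284 against 2005 cpm) were not called. In the prostaglandin and leukotriene list 3 of 21 genes were higher (14.3%, against 3.39% of all genes). *Ptgs2*, the inducible cyclooxygenase, was at 92.99, 108, 112 and 122 cpm in the CD45hi libraries and 8.29, 0.83, 0.246 and 1.93 cpm in the CD45lo libraries (38.5-fold, log2 fold change 5.27, SE 0.88, FDR = 0.00136). *Ptgs1*, the constitutive form, was at 690.1, 501, 623 and 636 cpm in the CD45hi libraries and 1163, 999, 1134 and 1078 cpm in the CD45lo libraries, the opposite order without overlap, which did not pass (FDR = 0.157). *Pla2g7* was at 79.5 against 4.84 cpm (FDR = 0.000569) and *Ptger4*, a prostaglandin E2 receptor, at 47.4 against 2.63 cpm (FDR = 0.000164). Among 15 purinergic receptors and ectonucleotidases *P2ry10* was higher (5.64 against 0.14 cpm, FDR = 0.0144) and *P2ry12* and *P2ry13* lower, while *Entpd1*, CD39, was at 496 ± 99.3 cpm in CD45hi and 895 ± 85.3 cpm in CD45lo cells (FDR = 0.15). The shares of this list were 6.67% higher, against 3.39% of all genes, and 13.3% lower, against 0.588%. Of 24 glycolysis genes 3 were higher, the glucose transporter genes *Slc2a3* (148 against 30.8 cpm, FDR = 0.00698) and *Slc2a6* (16.8 against 1.57 cpm, FDR = 0.013) and the lactate exporter gene *Slc16a3* (55.5 against 9.67 cpm, FDR = 0.0125), and 1 was without CD45lo replicate 1. The 3 were 12.5% of those tested, against 3.39% of all genes. *Gapdh* was at 388 against 290.2 cpm. Leaving out 1 library ended the call of *Ctsc* (CD45lo replicate 1, 2 or 4, FDR = 0.051 to 0.0693), *Ctse* (CD45hi replicate 1 or 4 or any CD45lo library, FDR = 0.0593 to 0.12) and *Lgmn* (CD45hi replicate 2 or 4 or any CD45lo library, FDR = 0.0504 to 0.0807). An FDR above 0.05 without 1 library was found for *P2ry10* (CD45lo replicate 1 or 2, FDR = 0.0544 to 0.0592), *Slc2a6* (CD45lo replicate 1 or 2, FDR = 0.0515 to 0.0539) and *Slc16a3* (CD45lo replicate 1 or 4, FDR = 0.0521 to 0.0527). The test was passed without 1 library by *Entpd1* (CD45hi replicate 3, FDR = 0.02).

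Most mitochondrially encoded genes and part of the ribosomal protein genes were higher in CD45hi cells. Of 13 mitochondrially encoded proteins 9 were called higher (69.2%), and they summed to 21629 to 25428 cpm in CD45hi libraries and 10470.5 to 11118 cpm in CD45lo libraries. The count was 5 without CD45lo replicate 3 and 6 without CD45hi replicate 4. *mt-Co1*, cytochrome c oxidase subunit I, was at 12065, 13492, 14458 and 14481 cpm in the CD45hi libraries and 6496, 5820.2, 6048 and 6219.6 cpm in the CD45lo libraries (2.22-fold, log2 fold change 1.15, SE 0.094, FDR = 0.00016). The mitochondrial ribosomal RNAs took 15.5 to 16.5% of the counts in CD45hi and 8.4 to 9.31% in CD45lo libraries. They enter the library total, but with all mitochondrially encoded genes left out, an alternative chosen after seeing the data, there were 588 calls, 502 higher and 86 lower. Of 82 cytosolic ribosomal protein genes tested 22 were higher (26.8%, against 3.39% of all genes) and the median log2 fold change was 0.99. Every CD45hi library was above every CD45lo library for 64 of the 82, where 8.26% of all genes tested were. These genes share reads with pseudogene copies, and 10 or 11 were called without CD45hi replicate 4 or CD45lo replicate 1, 2 or 4. *Rps24* was at 244, 268, 344 and 387 cpm in the CD45hi libraries and 113, 98.1, 136 and 92.3 cpm in the CD45lo libraries (2.83-fold, log2 fold change 1.5, SE 0.19, FDR = 0.000896), and *Rps27* had the largest log2 fold change of those called, 2.12 (FDR = 0.02). The 31 proteasome genes, with 0 called by glmTreat and limma-voom, 1 by DESeq2 and 0 at an unadjusted p under 0.05, had a median log2 fold change of 0.073. Of 25 cell cycle genes *Mki67* alone was called by glmTreat (4%, against 3.98% of all genes). DESeq2 called 6, the edgeR 4 quasi-likelihood form 4 and limma-voom 1. The median log2 fold change of the 25 was 1.44, against 0.036 over all genes. An unadjusted p under 0.05 was found for 7 of them, and for 2092 of all 14967 genes (glmTreat). *Mki67* was at 195, 232, 154 and 141 cpm in the CD45hi libraries and 11.8, 39.2, 1.29 and 28.5 cpm in the CD45lo libraries (8.92-fold, log2 fold change 3.16, SE 0.63, FDR = 0.00846). *Top2a* (26.5 against 11.3 cpm), *Ccna2* (14.9 against 2.84 cpm) and *Pcna* (102 against 116 cpm) were not called. Left without 1 library, the test no longer called *Rps27* (CD45hi replicate 1 or CD45lo replicate 2, 3 or 4, FDR = 0.0518 to 0.0792).

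Genes with the largest differences were low or undetected in CD45lo cells. Among called genes with at least 10 cpm and no overlap, *Gpr171*, a G protein-coupled receptor, was at 3.08, 18.2, 30.4 and 6.18 cpm in CD45hi libraries and *Asprv1*, a skin-type aspartic protease also made by neutrophils, at 58.9, 9.36, 33.4 and 16.1 cpm, with no CD45lo library above 3 counts. They were at least 78.4-fold and at least 159.6-fold higher. *Adgrg6* and *Mctp2* were at least 89.2-fold and 64.4-fold higher on the same footing. *Krt80*, a keratin, was at 44.2, 20.4, 52.3 and 20.6 cpm in the CD45hi libraries and 0, 0.207, 0 and 0.114 cpm in the CD45lo libraries (log2 fold change 8.55, SE 1.04, FDR = 6.45e-05), *Stfa2l1*, a neutrophil cystatin, at 77.5, 5.3, 10.1 and 92.5 cpm in the CD45hi libraries and 0.0588, 0.207, 0 and 0.511 cpm in the CD45lo libraries (log2 fold change 7.82, SE 1.16, FDR = 0.000431) and *Klrb1b*, a lectin-like receptor of natural killer cells, at 10.8, 12.01, 6.86 and 52.98 cpm in the CD45hi libraries and 0.353, 0, 0 and 0 cpm in the CD45lo libraries (log2 fold change 7.76, SE 1.4, FDR = 0.00257). The remaining genes of the 10 were *Cd300e* (28.98 against 0.136 cpm), *Nlrp12* (18.6 against 0.0981 cpm) and *Bend4* (25.6 against 0.19 cpm). Genes with the lowest log2 fold changes were of another kind. *Gm3248* (-4.67), *Gm3252* (-3.11) and *Gm3591* (-2.25) are copies in a repeated region of chromosome 14, and their counts were fractional in 7 or 8 of the 8 libraries, so reads were shared among copies and the single values are uncertain. The others were *2700081O15Rik* (2.03, 0.994, 3.61 and 1.22 cpm in the CD45hi libraries and 22.4, 22.99, 20.3 and 30.4 cpm in the CD45lo libraries, log2 fold change -3.61, FDR = 0.0131), the zinc finger genes *Zfp174* (2.13 against 14.4 cpm) and *Zfp606* (7.65 against 32.8 cpm), the membrane protein gene *Tmem144* (7.37 against 30.8 cpm), the folate and heme carrier gene *Slc46a1* (8.49 against 34.9 cpm), *Dpy19l3* (12.9 against 50.5 cpm) and *Hcfc2* (12.8 against 42.1 cpm). At the highest levels the lower genes included *P2ry12*, *Sparc*, *Tgfbr1*, *Cx3cr1* and *P2ry13*, followed by *Marcks*, a substrate of protein kinase C (802 ± 117 cpm in CD45hi and 1651 ± 128 cpm in CD45lo cells, FDR = 0.0117), *Fcrls*, *Cd164*, a sialomucin (551 ± 61.7 cpm in CD45hi and 1339 ± 46.98 cpm in CD45lo cells, FDR = 8.62e-05), and *Mertk*, a receptor for dying cells (570.0 ± 64.99 cpm in CD45hi and 1168 ± 88.4 cpm in CD45lo cells, FDR = 0.0229). The call was lost without 1 library for *Adgrg6* (CD45hi replicate 4 or any CD45lo library, FDR = 0.0592 to 0.0948), *Mctp2* (CD45lo replicate 2 or 3, FDR = 0.0506 to 0.0564) and *Nlrp12* (CD45hi replicate 2 or CD45lo replicate 1, 2 or 3, FDR = 0.0971 to 0.114). Leaving out 1 library ended the call of *Bend4* (CD45hi replicate 4 or CD45lo replicate 2, 3 or 4, FDR = 0.0556 to 0.085), *Gm3248* (CD45hi replicate 1 or 2 or any CD45lo library, FDR = 0.0545 to 0.0697) and *Gm3591* (CD45hi replicate 1 or 2 or CD45lo replicate 3 or 4, FDR = 0.0509 to 0.0558). An FDR above 0.05 without 1 library was found for *Zfp174* (CD45hi replicate 2 or 3 or CD45lo replicate 2, 3 or 4, FDR = 0.0615 to 0.0958), *Tmem144* (CD45hi replicate 1 or CD45lo replicate 2 or 3, FDR = 0.0519 to 0.057) and *Slc46a1* (CD45hi replicate 2, 3 or 4 or any CD45lo library, FDR = 0.0509 to 0.0788). Left without 1 library, the test no longer called *Hcfc2* (CD45hi replicate 1, 3 or 4 or any CD45lo library, FDR = 0.0594 to 0.0938) and *Mertk* (CD45hi replicate 1 or 4 or CD45lo replicate 1 or 4, FDR = 0.0502 to 0.0688).

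The difference between the gates was set beside that in WD-fed mice, whose libraries are separate. In WD-fed mice the CD45hi and CD45lo means were 1085 against 3422 cpm for *P2ry12*, 394 against 1149 cpm for *Tmem119*, 1168 against 68.4 cpm for *Mrc1*, 270.5 against 20.3 cpm for *Ccr2*, 262 against 16.3 cpm for *Cxcr2*, 3479 against 71.3 cpm for *Cd74* and 483 against 8.03 cpm for *Il1b*. Each lay on the same side as on chow. Whether diet and CD45 level interact was tested with edgeR's glmQLFTest, which called 1 of 14967 genes (0.00668%), with 1515 at an unadjusted p under 0.05. It was *Trmt61a*, which encodes the catalytic subunit of a tRNA methyltransferase and is named after its value was seen. In chow libraries it was at 56.4, 30.6, 41.3 and 20.7 cpm in the CD45hi libraries and 18.6, 18.2, 33.7 and 39.4 cpm in the CD45lo libraries, which overlapped. In WD-fed mice its mean was 0.616 against 27.7 cpm, and the contrast on chow exceeded that on WD by 5.88 on the log2 scale (SE 0.78, edgeR glmQLFTest FDR = 0.0128). DESeq2 called 188 genes for this interaction, and limma-voom 0, with 1202 at an unadjusted p under 0.05. The edgeR test called 0 without CD45lo replicate 1 (1229 at an unadjusted p under 0.05) or 2 (1242). It also called 0 in its edgeR 4 quasi-likelihood form (1429) and with a block for the replicate number (572). A call on chow alone is thus not shown to be particular to this diet.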

How the data were processed

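RNA was measured by poly(A) RNA-seq in 15 libraries of sorted CD11b+ brain cells, of which 8 from chow-fed mice enter this comparison. Per the labels and methods, the authors trimmed paired reads and ran RSEM 1.2.12 with Bowtie2 against mm10, and deposited expected counts and TPM per gene for each library. The use of strand in counting and the annotation release are not given in the sources used here, so reads of overlapping antisense genes cannot be told apart.

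Expected counts were rounded and 38924 genes were reduced to the 14967 that reached 1 cpm in 2 or more of all 15 libraries. Libraries were scaled by TMM. The fit (edgeR 4.0.16, quasi-likelihood in its legacy form, R 4.3.3) held 4 groups of diet by CD45 level, and glmTreat tested the contrast against 1.5-fold. The TPM deposited by the authors were used only where levels are given per length. A difference between diets was tested with glmQLFTest. Alternatives were DESeq2 1.42.0, limma-voom (limma 3.58.1), DESeq2 size factors, other filters, the chow libraries alone, a replicate block and each library left out. On simulated counts of this comparison (14438 genes), 41 of 50 genes raised 4-fold and 36 of 50 lowered 4-fold were called. So were 47 of 50 raised 8-fold and 50 of 50 lowered 8-fold, with 3 calls among unchanged genes. Only genes with a mean of at least 20 cpm were changed. Before the change each gene had the same mean and dispersion in every group. Lower levels and the larger spread of the CD45hi libraries were thus not covered.

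Gene lists, of which 48 were used, and members were chosen with earlier results of these data known. Named are, per list, up to 4 called genes of the highest cpm in each direction, genes that define the list and members described by role, and over all genes the 10 largest differences (at least 10 cpm, no overlap) and the 10 highest levels among called genes in each direction. Some genes that these rules select are not reported here. Symbols and coordinates are those of the mouse annotation of GRCm38, matched by gene ID. Promoter sequences are from RefSeq. Libraries are grouped by their labels, each total count is given in the report, and floors and p-values cover counting error and the spread between these libraries only. Within a gate no pair of libraries agreed within sampling noise, so none is a copy of another, and each was counted as 1 sample. This comparison cannot show that libraries came from separate mice.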

Additional observations from a re-analysis of the deposited data

Results flagged for a closer look

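In a group of 4 libraries, a value was singled out where its gap to the nearest other library exceeded the share of the range that Dixon's 95% critical value allows. Of 492 groups of 4 values for the genes and summed lists of the report 39 had such a library (7.93%), where chance gives about 1 in 20. CD45hi replicate 4 was the one standing high in 12 of them, and it also stood apart in the PCA.

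CD45hi replicate 1 was highest for *Adam8* at 101 cpm (others 47.96 to 49.5 cpm). The same library was lowest for *Nfkbia* at 77.3 cpm (others 132 to 138 cpm). CD45hi replicate 2 was highest for *Nlrp12* at 52.7 cpm (others 3.61 to 10.1 cpm). The same library was lowest for *Cd9* at 124 cpm (others 189.8 to 193 cpm). CD45hi replicate 3 was highest for *Cst7* at 31.1 cpm (others 13.3 to 14.5 cpm) and *Gfap* at 3.52 cpm (others 0 to 0.0828 cpm). The same library was lowest for *S100a8* at 125 cpm (others 343 to 383 cpm). CD45hi replicate 4 was highest for *Adgrg6* at 53.8 cpm (others 0.917 to 7.29 cpm), *Bend4* at 82.2 cpm (others 6.25 to 7.14 cpm), *Cebpb* at 38.4 cpm (others 15.9 to 16.6 cpm) and *Gas6* at 312 cpm (others 92.7 to 119 cpm). The same library was highest for *H2-Aa* at 3171 cpm (others 2074 to 2144 cpm), *H2-Eb1* at 1032 cpm (others 585 to 659 cpm), *Klrb1b* at 52.98 cpm (others 6.86 to 12.01 cpm) and *Mx1* at 94.6 cpm (others 19.9 to 31.1 cpm). Further values of that library, the highest of its group, were those of *Nr4a1* at 302 cpm (others 123 to 140.5 cpm), *Oas3* at 202 cpm (others 44.7 to 69.97 cpm), *Rfxank* at 10.04 cpm (others 1.05 to 1.41 cpm) and *Spp1* at 187 cpm (others 35.01 to 57.01 cpm). Further values of that library, the lowest of its group, were those of *Igf1* at 63.1 cpm (others 104 to 112 cpm).

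CD45lo replicate 1 was highest for *Bend4* at 0.706 cpm (others 0 to 0.0519 cpm), *Klrb1b* at 0.353 cpm (others at 0) and *Oasl2* at 32.1 cpm (others 12.4 to 14.01 cpm). CD45lo replicate 2 was highest for *C1qc* at 1333 cpm (others 892 to 931 cpm), *Csf1r* at 4775 cpm (others 4190.5 to 4282 cpm), *Gpr171* at 0.0519 cpm (others at 0) and *Mmp13* at 0.571 cpm (others at 0). The same library was highest for *Nkg7* at 0.104 cpm (others at 0) and *Nlrc4* at 2.7 cpm (others 0.0567 to 0.369 cpm). Further values of that library, the lowest of its group, were those of *Marcks* at 1461 cpm (others 1697 to 1735 cpm). CD45lo replicate 3 was highest for *Asprv1* at 0.184 cpm (others at 0), *Cd300e* at 0.492 cpm (others 0 to 0.0519 cpm) and *Pcna* at 137 cpm (others 108 to 109.9 cpm). CD45lo replicate 4 was highest for *Cxcl9* at 1.08 cpm (others 0.207 to 0.307 cpm), *Fn1* at 40.1 cpm (others 23.1 to 23.9 cpm), *Fpr1* at 1.25 cpm (others 0.799 to 0.83 cpm) and *Mrc1* at 162 cpm (others 69.99 to 78.1 cpm). The same library was highest for *Nlrp12* at 0.341 cpm (others 0 to 0.0519 cpm) and *Pf4* at 9.36 cpm (others 2.35 to 3.32 cpm).

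The difference between CD45hi and CD45lo cells was called different between the diets in the main fit for *Trmt61a*, by 5.88 on the log2 scale (SE 0.78, edgeR glmQLFTest FDR = 0.0128), the one gene of 14967 that this test called. Without CD45lo replicate 1 or 2 of the chow libraries it was not called. Nor was it called with the edgeR 4 quasi-likelihood form, limma-voom or the replicate block.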

How the results depend on the processing

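Of the 162 genes named and called, 115 were called under each of the 19 alternatives that tested them, and none of the 162 changed direction under any of them. Calls lost with both forms of the replicate block included those of *Cebpb*, *Cd300e* and *Dpy19l3* (edgeR glmTreat FDR = 0.0632 to 0.0971). *Cfp*, *Cd4* and *Ms4a4c* were not called by limma-voom (FDR = 0.0763 to 0.0785), nor *Nkg7* by the edgeR 4 quasi-likelihood form (FDR = 0.0551). The count of 595 calls (507 higher, 88 lower) rose to 1162 (873 and 289) where the 1.5-fold limit was applied after glmQLFTest, which does not test against it, and to 1784 (1251 and 533) with DESeq2, which also differs in scaling, dispersion and test. limma-voom gave 542 calls, 404 higher and 138 lower, so 74.5% of its calls were higher against 85.2%, and its median log2 fold change over all genes was -0.22 against 0.036; relative to that shift the split is uncertain by as much. Leaving out 1 library each gave 412 to 671 calls, 367 to 547 higher and 45 to 124 lower, with 45 to 55 lower calls without 1 CD45lo library. The cause was not tested. The count of the difference between diets was 188 with DESeq2, 0 with the edgeR 4 quasi-likelihood form (1429 genes at an unadjusted p under 0.05) and with limma-voom (1202), and 0 to 2 without 1 library. With the 8 chow libraries alone 13948 genes were tested and 579 called, 502 higher and 77 lower, and 516 of the 595 calls were shared. The share of PC1 was 29.7%, and 34.1% without scaling or 29.75 to 35.7% without 1 library.

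The labels do not say what a shared replicate number means. Deviations from the group means of same-numbered CD45hi and CD45lo libraries correlated at 0.00978, 0.0489, 0.0695 and 0.0193. Correlations this small cannot decide whether such libraries came from the same mouse. With 3 of 4 CD45hi and 4 of 4 CD45lo libraries correlating best with their own number, this is a hint from the data and not the design. With the replicate block there were 417 calls, 381 higher and 36 lower, or 461 (418 and 43) in the chow libraries alone, where 2 of 11 neutrophil granule and precursor genes, *Ltf* and *Lcn2*, were called, and 0 for the difference between diets (572 at an unadjusted p under 0.05).

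Directions changed only for genes that were not called. With 1 library left out, the log2 fold change ranged from -0.17 to 0.088 for *C1qb*, from -0.25 to 1.16 for *Camp*, from -0.44 to 1.12 for *Chil3*, from -0.0397 to 0.33 for *Cyba*, from -0.39 to 0.017 for *Fcgr1* and from -0.098 to 0.15 for *Fcgr2b*. *Chil3* was at -0.21 with limma-voom and at -0.153 and -0.145 with the replicate block (15 and 8 libraries), and *Fcgr2b* at -0.013 and -0.0092 with the block. *Gfap* was at -0.56 with limma-voom and -1.99 with the block (15 libraries). At 5 to 20 cpm in CD45lo cells, 12.4% of genes had a CD45hi library at 3 counts or fewer, although 3 counts were 0.193 to 0.264 cpm in those libraries. The cause was not tested, and levels under these floors cannot be measured.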
